A study of Mus musculus with 12 samples.

Results

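Integrins are the receptors through which the smooth muscle cells (SMCs) of the aortic wall hold on to collagen, laminin, fibronectin and other matrix proteins. Each receptor is a pair of one alpha and one beta subunit. The alpha subunit sets most of the ligand choice, and the beta subunit carries the cytoplasmic tail that binds talin and kindlin and so couples matrix to actin. Beta1 pairs with alpha1 and alpha11 for collagen, with alpha7 for laminin, and with alpha5, alpha8 and alphav for ligands that carry an arginine-glycine-aspartate (RGD) sequence, such as fibronectin. Alpha9 also pairs with beta1, and beta3 and beta5 pair with alphav. The subunits described here are those of SMC receptors: Itga5, Itga8 and Itgav (RGD receptors), Itga1 and Itga11 (collagen receptors), Itga7 (laminin receptor), Itga9, and the beta subunits Itgb1, Itgb3 and Itgb5. They were found by gene name among the non-control probes of the arrays, which gave 14 probes for the 10 genes, out of 55681 non-control probes. All 14 probes were well above background on all 12 arrays, so every one was among the 27801 probes, of 20026 genes, that were tested.

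The arrays measured RNA from the aortae of C57BL/6J mice on day 3, with 4 groups of 3 mice. Per the study's methods the mice were males of at most 14 weeks, and the tissue was a 10 mm stretch of aorta above the right renal artery, frozen before RNA extraction, so that each value is a mean over all cell types of the wall. Controls carry the treatment label DMSO, the vehicle, which was injected into the peritoneum once a day. Their sample titles call them "Pre", a name the study elsewhere gives to tissue taken before the challenge, so whether these mice had vehicle for the same 3 days as the others is not settled, and every difference from DMSO carries that doubt. By the same route the rapamycin group had rapamycin, an inhibitor of mTOR, at 2 mg/kg/day. The BA+DMSO group had vehicle together with the BAPN + AngII challenge, and the BA+rapamycin group had rapamycin together with it. The challenge was a continuous infusion of beta-aminopropionitrile (BAPN), which blocks collagen crosslinking, at 150 mg/kg/day and of angiotensin II (AngII) at 1 ug/kg/min, a mouse model of aortic dissection (AD). Rapamycin was dissolved in DMSO, so the rapamycin and both challenged groups received DMSO, and day 3 lies before dissections form in this model. The comparisons asked how the challenge changed these subunits, and whether rapamycin altered that response. The comparisons share groups, so their values are set side by side and not counted as separate evidence.

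Values are log2 signals relative to the 75th percentile of the same array, so a value of 0 is the level of that percentile. A probe's brightness depends on its sequence as well as on its transcript, so levels were compared between groups and not between probes. A difference was called where limma's adjusted p was under 0.05 over all 27801 probes. Where a gene had 2 probes, the one with the higher mean over the 12 arrays stood for the gene.

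The arrays differed in ways that touch every result below. The 75th percentile lay between 221 and 337 signal units on the 6 unchallenged arrays, and between 74.6 and 132 on 5 of the 6 challenged ones. BA+DMSO mouse 3, at 246, was the exception. The correlation between arrays of one group was 0.988 to 0.990 for DMSO but only 0.912 to 0.961 for BA+DMSO. The DMSO arrays and rapamycin array 1 shared one slide and scan, and the other 8 arrays shared the second, so that DMSO and BA+DMSO arrays shared no slide and a slide term rests on the 3 rapamycin arrays alone. Between rapamycin array 1 and the other two, Itga8 was 7.72 against 7.65 and 7.94, and Itgb1 4.66 against 4.74 and 4.69. All 12 SMC markers were well above background on all 12 arrays. The SMC marker mean, relative to the DMSO group, was -0.11 to -0.0028 with rapamycin alone, -0.81 to -0.75 in BA+rapamycin, and -1.55, -0.28 and -0.56 in BA+DMSO mice 1, 2 and 3. The mean does not hold for every marker: in BA+DMSO mice Tagln (0.45) and Acta2 (0.27) stood above their controls, neither called, and the rest of the 12 below. In whole tissue, fewer SMCs and less RNA per SMC cannot be told apart.

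Itgb1 and Itga1 were each read at 2 stretches of the transcript, which gave the same direction for Itgb1 and opposite directions for Itga1, and the sequences are shown for that reason. Positions are those of the array annotation on the mouse build mm9. A span longer than the 60 bases of a probe means that the probe crosses at least 1 intron. The main Itgb1 probe, chr8:131250081-131255976 on the plus strand, reads the cytoplasmic tail. Its capitals mark the codons of both NPxY motifs, the docking sites of talin and kindlin. The second Itgb1 probe, chr8:131246349-131246408, lies within 1 exon upstream of it. The main Itga1 probe, chr13:115756765-115758419 on the minus strand, starts at base 3710 of the transcript, and the second, chr13:115821387-115825525, starts at base 683, nearer the 5′ end.
Itgb1 main probe: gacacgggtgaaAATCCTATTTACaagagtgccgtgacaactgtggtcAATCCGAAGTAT
Itgb1 second probe: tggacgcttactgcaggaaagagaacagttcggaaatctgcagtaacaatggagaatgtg
Itga1 main probe: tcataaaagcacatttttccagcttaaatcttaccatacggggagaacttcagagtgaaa
Itga1 second probe: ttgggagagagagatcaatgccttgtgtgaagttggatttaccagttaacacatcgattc

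After 3 days of BAPN + AngII, the alpha8 subunit fell and the alpha11 and beta1 subunits rose in vehicle-treated mice, and alpha1 fell at its main probe but not at its second. Alpha8 is the RGD receptor typical of contractile SMCs, alpha1 is a collagen receptor of the same cells, alpha11 binds fibrillar collagen and is best known from fibroblasts, and beta1 is the shared partner of all 3. Itga8 was 2.97-fold lower and Itga1, by the main probe, 1.77-fold lower than in DMSO mice, while Itga11 was 2.32-fold and Itgb1 1.59-fold higher. By limma, 4 of the 10 genes were called, 2 higher and 2 lower, with a median difference of -0.25 over the 10 genes against -0.02 over all genes. Of all 20026 genes, 21.4% were called in this comparison, 10.4% higher and 11.0% lower. The groups did not overlap for 7 of the 10 genes, against 35.6% of all genes. Of the 14 probes 5 were called, against 20.5% of all probes. With the slide as a block the count of called genes was 0 of 10, and 0.054% of all probes were called. The differences in that fit were -1.65 for Itga8, 0.61 for Itgb1, 1.42 for Itga11 and -0.83 for Itga1. Its slide term rests on the rapamycin arrays alone, so slide and challenge cannot be told apart by these values. The count was also 0 with only the arrays of these 2 groups in the fit, which leaves the differences as they are by construction. That fit called 4.47% of all probes. When single arrays were left out the count was between 1 and 7. The 7 came without BA+DMSO mouse 3, where Itgav (0.47, adjusted p = 0.0299), Itgb3 (-0.71, adjusted p = 0.0485) and Itga7 (-0.75, adjusted p = 0.0476) were called as well, and where 38.0% of all probes were called. Without BA+DMSO mouse 1 the Itgb3 and Itga7 differences were only -0.11 and -0.19. Counts of 1 or 2 came without DMSO mouse 1, 2 or 3.

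**Figure D1:**
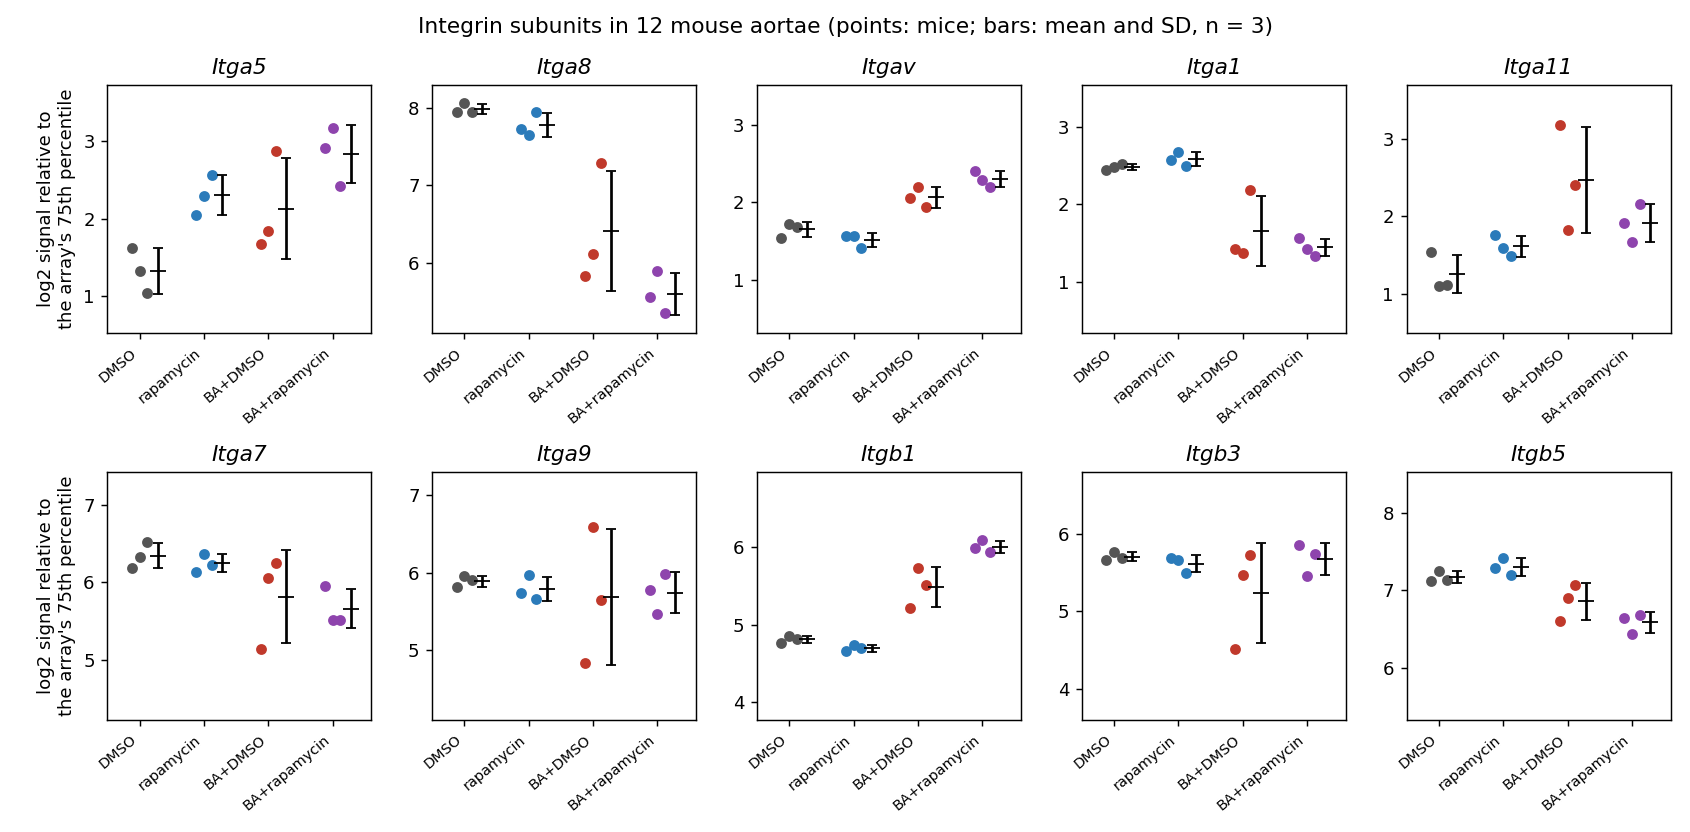
Each panel plots one subunit by its main probe, with the log2 signal relative to the array's 75th percentile on the y axis and the 4 groups on the x axis. Points are mice and bars give the mean and SD of 3, and all panels span the same number of log2 units. Itga8 lay at 7.95 to 8.05 in DMSO mice and at 5.35 to 5.89 in BA+rapamycin mice, and the BA+DMSO mice spread widely for most subunits.

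Itga8 had the largest change among the 10 genes. It stood at 7.95, 8.05 and 7.95 in the DMSO mice and at 5.83, 6.12 and 7.29 in the BA+DMSO mice. The groups did not overlap, but BA+DMSO mouse 3 lay far above the other two. The mean fell from 7.98 ± 0.061 to 6.41 ± 0.77 (SD, n = 3), a log2 difference of -1.57 ± 0.32 (SE) with an adjusted p of 0.00755. The call held when any 1 array was left out, and without BA+DMSO mouse 3 the difference was -2.01. In rapamycin-treated mice the gap was wider by means, but the difference between the 2 gaps (-0.60) was not called (limma's interaction, adjusted p = 0.737). Itga8 was 7.72, 7.65 and 7.94 with rapamycin alone and 5.56, 5.89 and 5.35 in BA+rapamycin mice, a 4.50-fold fall with an adjusted p of 0.000989 (limma). Setting each array to its mean SMC marker level, an alternative chosen after seeing the data, left a difference of -0.77 for vehicle (adjusted p = 0.105) and -1.45 under rapamycin (adjusted p = 0.00631). This scaling moved the median over all probes to 0.75 and 0.63, so that values on it are to be read against those medians.

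The other RGD receptor subunits stood on the opposite side of their controls. Itga5, the classical fibronectin receptor subunit, was 1.63, 1.32 and 1.04 in DMSO mice and 1.68, 1.84 and 2.87 in BA+DMSO mice. Every challenged mouse was above every control, with a difference of 0.80 ± 0.32 (SE). The adjusted p of 0.101 by limma did not pass, and without BA+DMSO mouse 3 the difference was 0.43. With cyclic loess Itga5 was called by limma (0.93, adjusted p = 0.0405), beside 21.6% of all probes. Itga5 was also called with array brightness as a covariate, chosen after seeing the data (1.28, adjusted p = 0.0357, 18.3% of all probes). Itgav, the subunit of the vitronectin receptors, was 1.54, 1.73 and 1.69 in DMSO mice and 2.05, 2.20 and 1.94 in BA+DMSO mice. These groups did not overlap either, with a difference of 0.41 and an adjusted p of 0.0730. Under rapamycin the Itgav difference was 0.78, from 1.52 ± 0.088 to 2.30 ± 0.11 (SD, n = 3), and it was called with an adjusted p of 0.00322. With median scaling that call was lost (0.21, limma adjusted p = 0.477), although 49.4% of all probes were called there. The second Itgav probe, which starts at base 3885 of the transcript instead of 6113, gave -0.07 in vehicle-treated and 0.14 in rapamycin-treated mice, neither called (limma, adjusted p = 0.911 and 0.780). At this probe the DMSO mice were -0.0144, -0.0371 and -0.239 and the BA+DMSO mice -0.0014, -1.19 and 0.686. Mouse 2 thus lay below every control, and mice 1 and 3 above.

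The collagen receptor subunits parted from each other only by the main probe of Itga1. Itga11 was 1.54, 1.11 and 1.12 in DMSO mice and 3.18, 1.82 and 2.41 in BA+DMSO mice, without overlap. Its difference was 1.21 ± 0.30 (SE), with an adjusted p of 0.0177. The call was lost without DMSO mouse 2 (adjusted p = 0.0745) or DMSO mouse 3 (adjusted p = 0.0618). In rapamycin-treated mice Itga11 was 1.75, 1.598 and 1.49 without the challenge and 1.92, 1.68 and 2.16 with it. These groups overlapped, and the difference of 0.30 was not called (adjusted p = 0.425).

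Itga1 gave opposite readings at its 2 probes. The main probe was 2.44, 2.48 and 2.52 in DMSO mice and 1.42, 1.37 and 2.18 in BA+DMSO mice, a called difference of -0.82 ± 0.21 (SE, adjusted p = 0.0201). The second probe was 0.52, 0.91 and 1.06 in DMSO mice and 1.96, 2.90 and 0.06 in BA+DMSO mice, so that mice 1 and 2 were above and mouse 3 below every control. Its difference of 0.81 was not called (adjusted p = 0.318). In rapamycin-treated mice both probes were called, in opposite directions. The main probe went from 2.58, 2.67 and 2.50 to 1.57, 1.43 and 1.34 (-1.14, adjusted p = 0.00279), and the second from 0.73, 1.00 and 0.45 to 2.60, 3.12 and 2.54 (2.02, adjusted p = 0.0152). The direction of Itga1 therefore depended on the probe, and the mean of both probes gave -0.01 with vehicle and 0.44 with rapamycin, neither called. The call of the main probe for vehicle was also lost without DMSO mouse 1, 2 or 3 or BA+DMSO mouse 1 (adjusted p of 0.0547 to 0.0731).

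**Figure D2:**
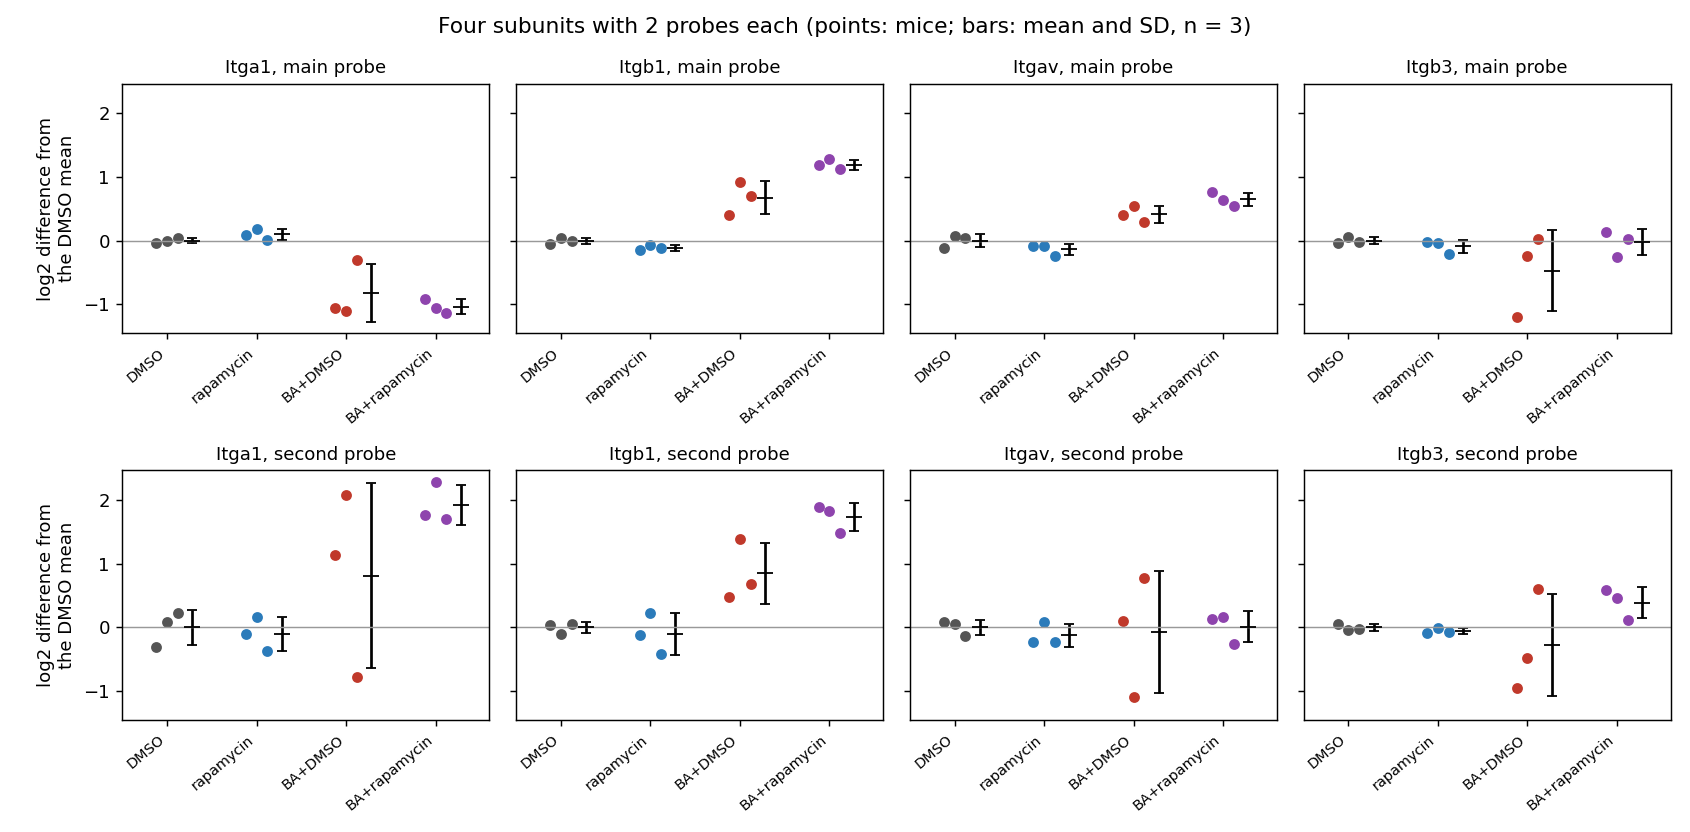
The upper row plots the main probe and the lower row the second probe of Itga1, Itgb1, Itgav and Itgb3, as the log2 difference of each mouse from the DMSO mean (y axis) in the 4 groups (x axis). Points are mice and bars the mean and SD of 3. The 2 Itgb1 probes moved up together in both challenged groups, whereas those of Itga1 moved apart in BA+rapamycin mice.

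Itgb1 read higher at both of its probes. The tail probe was 4.77, 4.85 and 4.81 in DMSO mice and 5.21, 5.73 and 5.51 in BA+DMSO mice, a difference of 0.67 ± 0.16 (SE, adjusted p = 0.0158). The upstream probe was 2.84, 2.70 and 2.85 in DMSO mice and 3.28, 4.18 and 3.47 in BA+DMSO mice, a difference of 0.85 ± 0.25 (SE, adjusted p = 0.0372). No challenged mouse overlapped a control at either probe. The tail probe's call was lost without DMSO mouse 1, 2 or 3 (adjusted p of 0.0533 to 0.0593). By limma it was also lost with median scaling (0.41, adjusted p = 0.26) and normexp background correction (0.40, adjusted p = 0.0624). These 2 settings called 14.3% and 23.7% of all probes. In rapamycin-treated mice Itgb1 had the smallest adjusted p of the 10 genes. The tail probe was 4.66, 4.74 and 4.69 without the challenge and 5.99, 6.09 and 5.93 with it, a 2.47-fold rise with an adjusted p of 0.000408. The upstream probe was 2.68, 3.02 and 2.37 without the challenge and 4.68, 4.63 and 4.27 with it, a 3.57-fold rise with an adjusted p of 0.000715.

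The partners of alphav among the beta subunits had smaller differences. Itgb5 was 7.12, 7.26 and 7.13 in DMSO mice and 6.61, 6.90 and 7.07 in BA+DMSO mice. These groups did not overlap and differed by -0.31 (adjusted p = 0.209). By limma, Itgb5 was called lower after quantile normalization (-0.59, adjusted p = 0.0366) and in the deposited matrix (-0.56, adjusted p = 0.0425). These settings called 19.7% and 19.6% of all probes. Without BA+DMSO mouse 1 the Itgb5 difference was -0.18. Under rapamycin Itgb5 fell from 7.30 ± 0.11 to 6.59 ± 0.13 (SD, n = 3), a called difference of -0.71 (adjusted p = 0.00778). Relative to the SMC markers of the same arrays, a scaling chosen after seeing the data, that difference was 0.01 (adjusted p = 0.992). The median over all probes on that scale was 0.63, so Itgb5 still lay below it. Itgb3, which also forms the platelet fibrinogen receptor, was 5.67, 5.76 and 5.68 in DMSO mice and 4.51, 5.47 and 5.73 in BA+DMSO mice. One mouse was more than a log2 unit below the controls and another was among them, and the difference of -0.47 was not called (adjusted p = 0.240). Its second probe gave -0.28 (adjusted p = 0.573).

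Itga7 and Itga9 were not called in any comparison under the setting used here. Itga7, the laminin receptor subunit of muscle, was 6.19, 6.32 and 6.51 in DMSO mice and 5.14, 6.06 and 6.25 in BA+DMSO mice (-0.53, adjusted p = 0.187). With rapamycin it was 6.14, 6.37 and 6.23 without the challenge and 5.95, 5.52 and 5.51 with it. The latter groups did not overlap, and the difference of -0.59 had an adjusted p of 0.0977 (limma), or 0.0250 without BA+DMSO mouse 1, which enters only through the shared spread and without which 41.8% of all probes were called. Itga7 was also called lower there under other settings of all 12 arrays, with an adjusted p of 0.0483 after quantile normalization, 0.0160 after median scaling, 0.00902 after normexp background correction and 0.00207 with array weights. These settings called 41.4%, 49.4%, 62.4% and 65.7% of all probes, against 41.7% under the setting used here. Itga9, whose ligands include tenascin-C and osteopontin, was 5.81, 5.95 and 5.91 in DMSO mice and 4.84, 6.59 and 5.65 in BA+DMSO mice, which lay on both sides of the controls. Its difference was -0.20, with a 95% confidence interval of -0.96 to 0.57. It turned to 0.23 without BA+DMSO mouse 1 and was -0.65 without mouse 2.

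In rapamycin-treated mice the challenge moved 5 of the 10 genes by limma, 2 higher (Itgb1 and Itgav) and 3 lower (Itga8, Itgb5 and, by its main probe but with the second probe called higher, Itga1), with a median of 0.01 against -0.07 over all genes. The background was higher too: 42.7% of all genes were called, 19.8% higher and 22.9% lower. The groups did not overlap for 6 of the 10 genes, against 67.8% of all genes. Of the 14 probes 7 were called, against 41.7% of all probes. On the second slide alone, which held 2 rapamycin and all 3 BA+rapamycin arrays, 3 genes and 11.8% of all probes were called. There Itga8 differed by -2.20 (adjusted p = 0.0248), Itgb1 by 1.28 (adjusted p = 0.0231) and Itga1 by -1.14 (adjusted p = 0.0463), while Itgav differed by 0.80 (adjusted p = 0.0537) and Itgb5 by -0.72 (adjusted p = 0.0841). With the array's brightness as a covariate, an alternative chosen after seeing the data, only Itgb1 was called of the 10, beside 6.42% of all probes.

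**Figure D3:**
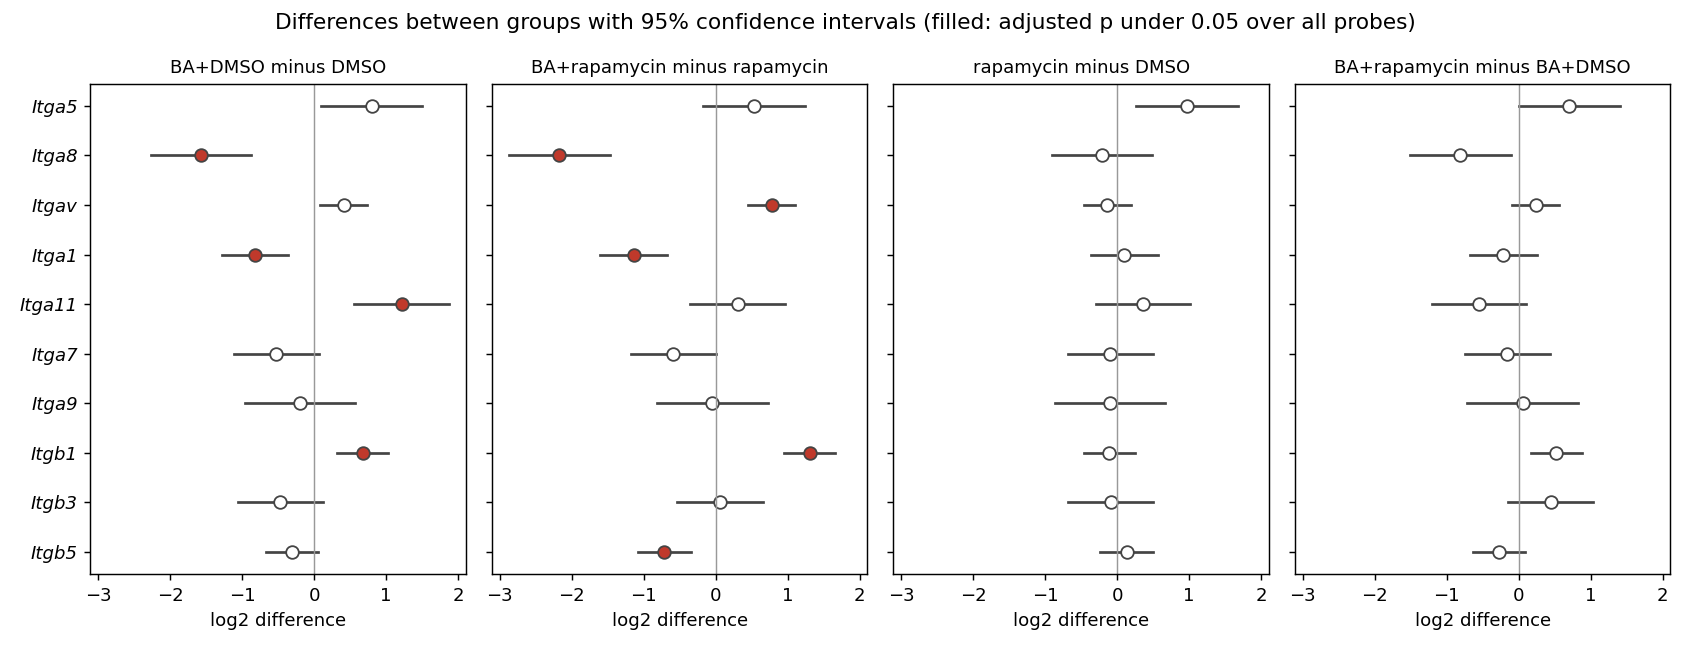
Each panel plots one comparison, with the log2 difference between 2 group means on the x axis and the 10 subunits on the y axis. Points are limma estimates with 95% confidence intervals, filled where the adjusted p was under 0.05 over all probes: 4 genes for BA+DMSO minus DMSO, 5 for BA+rapamycin minus rapamycin and 0 in the panels that compare rapamycin with vehicle.

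Rapamycin given to challenged mice left none of the 10 genes past the threshold. By limma 0 of 10 were called, with a smallest adjusted p of 0.146, and 0.305% of all genes were called. At an unadjusted p under 0.05 there were 3 of the 10 genes and 20.5% of all genes. The 3 genes were Itgb1, Itga8 and Itga5. Itgb1 was 5.21, 5.73 and 5.51 in BA+DMSO and 5.99, 6.09 and 5.93 in BA+rapamycin mice, and it was the 1 gene of the 10 whose groups did not overlap, against 14.9% of all genes. Its difference was 0.52 (95% confidence interval 0.17 to 0.87), and the upstream probe gave 0.89 (0.33 to 1.44), also without overlap. Itga8 was lower by a mean of 0.81 on the log2 scale (interval of the difference -1.51 to -0.11), with BA+DMSO mice 1 and 2 next to the BA+rapamycin mice and mouse 3 well above them. Without mouse 3 the Itga8 difference was -0.37. Itga5 differed by 0.71 (0.00 to 1.41), and by 1.08 without BA+DMSO mouse 3. Without BA+DMSO mouse 2, Itgb1 was called higher (0.64, adjusted p = 0.00636) and Itga11 lower (-0.87, adjusted p = 0.0217), in a fit that called 39.9% of all probes where that of all 12 arrays called 0.281%. No other array, when left out, gave a call in this comparison.

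Rapamycin alone left the subunits close to the DMSO level, with 1 departure. By limma 0 of 10 were called, with a smallest adjusted p of 0.925, and 0.00499% of all genes were called. At an unadjusted p under 0.05 there was 1 of the 10 genes, against 4.43% of all genes. That gene was Itga5, at 1.63, 1.32 and 1.04 in DMSO mice and 2.05, 2.29 and 2.56 in rapamycin mice, which did not overlap. Its difference was 0.97 (95% confidence interval 0.27 to 1.68). With array weights it was called (0.90, adjusted p = 0.0204), as were 5.44% of all probes. The groups did not overlap for 3 of the 10 genes, against 22.4% of all genes. The other 2 were Itga8, lower by 0.21, and Itgb1, lower by 0.11 on the log2 scale, by means. The remaining differences lay between -0.13 and 0.36.

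Whether rapamycin acted differently with and without the challenge was tested as an interaction. By limma 0 of 10 genes were called and 0% of all genes, with a smallest adjusted p of 0.737 among the 10 and 1 gene at an unadjusted p under 0.05, against 6.01% of all genes. That gene was Itgb1, with an interaction of 0.63 ± 0.23 (SE). Without BA+DMSO mouse 2, Itgb1 (0.76, adjusted p = 0.0376) and Itga11 (-1.23, adjusted p = 0.0463) were called, and so were 11.0% of all probes.

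The order of the groups differed from gene to gene. By its main probe Itgb1 ran rapamycin, DMSO, BA+DMSO, BA+rapamycin from low to high, with no overlap between neighbours, although rapamycin and DMSO differed by only 0.11. At the second probe rapamycin and DMSO mice overlapped. Itga8 ran the other way at the upper end, with DMSO highest, then rapamycin, BA+DMSO and BA+rapamycin, where the challenged groups overlapped. Itga5 ran DMSO, BA+DMSO, rapamycin, BA+rapamycin, and each neighbour after DMSO overlapped the next. Itga11 was lowest with DMSO and highest in BA+DMSO mice, with the rapamycin groups between and overlapping.

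Pairs of subunits were also compared within each array, which removes the scaling between arrays. Each pair shares a partner or a ligand class. Itga5 minus Itga8, which sets 2 RGD receptor alphas of beta1 side by side, was -6.32, -6.73 and -6.91 in DMSO mice, -5.67, -5.36 and -5.38 with rapamycin, -4.15, -4.28 and -4.42 in BA+DMSO mice, and -2.65, -2.72 and -2.92 in BA+rapamycin mice. The 4 groups stood apart without overlap, and BA+DMSO mouse 3, which was apart from its group for each gene singly, lay with it here. The challenge shifted this difference by 2.37 and rapamycin under challenge by a further 1.52, each with an exact two-sided permutation p of 0.1, the smallest that 3 against 3 allows, and 0.15 after Benjamini-Hochberg adjustment over the 6 pair tests. A minimum of 0.1 means that no pair test could reach 0.05.

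Itga1 minus Itga11, taken by main probes alone, was 0.90, 1.37 and 1.41 in DMSO mice and -1.76, -0.45 and -0.23 in BA+DMSO mice. The shift was -2.04 (exact permutation p = 0.1, adjusted 0.15). With rapamycin under challenge it shifted by 0.34 (exact permutation p = 0.7, adjusted 0.84). Itgb3 minus Itgb5 shifted by -0.16 with the challenge (exact permutation p = 1), and by 0.71 with rapamycin under challenge (exact permutation p = 0.1, adjusted 0.15), where the values went from -2.10, -1.43 and -1.35 to -0.79, -0.99 and -0.95. The shifts of 0.34 and -0.16 rest on BA+DMSO mouse 1, without which they were -0.13 and 0.08.

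**Figure D4:**
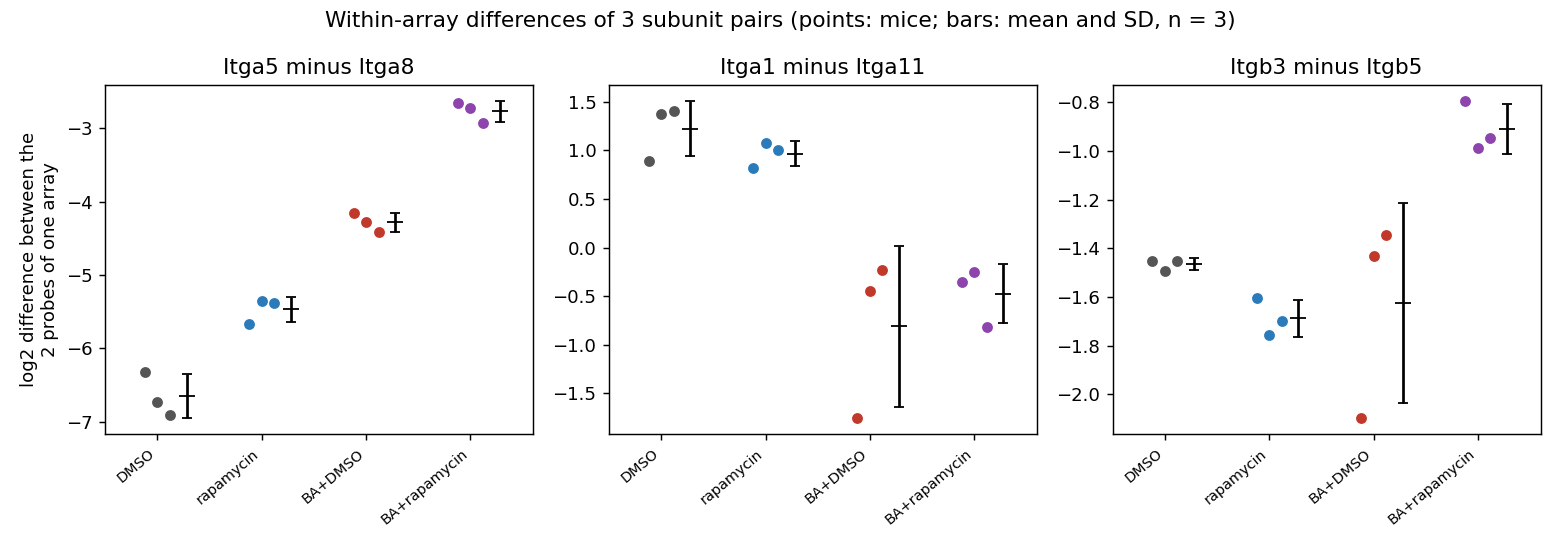
Each panel plots the log2 difference between the main probes of 2 subunits on the same array (y axis) in the 4 groups (x axis), with points for mice and bars for the mean and SD of 3. Itga5 minus Itga8 forms 4 separate steps from -6.91 to -2.65, whereas BA+DMSO mouse 1 stands apart in the other 2 panels.

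The genes whose signal ran most like the strongest movers were found by Pearson's r over the 12 arrays, as a description, since the arrays share groups. For Itga8 these were Prkg1 (r = 0.995), which encodes the cGMP-dependent kinase of SMC relaxation, Dsp (r = 0.994), which encodes desmoplakin, and Kcnab1 (r = 0.994), a potassium channel beta subunit. Their challenge differences were -1.51, -2.35 and -2.62. For Itga11 they were Casp1 (r = 0.973), the inflammatory caspase, Epyc (r = 0.968), a small leucine-rich proteoglycan, and Nsg1 (r = 0.962), with challenge differences of 1.03, 2.55 and 0.92.

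Other integrins gave a background for these subunits. Among 7 further subunits outside the blood cell lineages, 4 were tested. Itgb4, the laminin receptor beta of epithelia, was the 1 called of the 4 (0 to 2 over the alternatives for the challenge and 0 to 4 under rapamycin), beside 21.4% of all genes with the challenge and 42.7% under rapamycin. It was higher by 1.05 with the challenge and by 1.77 under rapamycin, while Itga10 (-0.85) and Itga6 (-0.19) were not called. Of 9 leukocyte and platelet subunits 7 were tested, with a median of 1.45 for the challenge. Called higher were 3, beside 10.4% of all genes called higher, and 0 to 6 were called over the alternatives. Itga4 of the same list lay the other way, at -0.45 with the challenge and -0.59 under rapamycin, neither called. Itgb2, the common leukocyte beta, rose by 2.66 (adjusted p = 0.000267) and Itgax, of myeloid cells, by 2.01 (adjusted p = 0.00159). Itga2b, the platelet partner of beta3, differed by 1.498 (adjusted p = 0.0538) and was well above background on only 1 of 3 DMSO arrays. In rapamycin-treated mice 5 of the 7 were called higher, beside 19.8% of all genes called higher, and 1 to 7 were called over the alternatives. Itga2b is 1 of the 5, although it was well above background on only 1 of 3 arrays in either group and was tested because all 3 BA+DMSO arrays detected it.

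Of 46 listed genes of the integrin adhesion machinery 43 were tested, and 10 were called with the challenge, 8 lower and 2 higher, with a median of -0.17. A count of 10 in 43 lies near the 21.4% of all genes called. Nexn, an actin-binding protein of muscle adhesions, fell by 1.08 (adjusted p = 0.0129). Fermt3, the kindlin of blood cells, rose by 2.17 (adjusted p = 0.00115) and was well above background on 2 of 3 DMSO arrays. Fermt2, the kindlin of non-blood cells, fell by 0.90 (adjusted p = 0.0337) and Tln1, encoding talin-1, fell by 0.64 (adjusted p = 0.0359). These 2 bind the beta tail and were chosen after their values were seen, so they do not stand for all tail-binding genes of the list. Tln2, the other listed talin gene, was not called (-0.21, limma adjusted p = 0.410). In rapamycin-treated mice 18 of the 43 were called, 14 lower and 4 higher, near the 42.7% of all genes, and Src, a tyrosine kinase of adhesions, differed by 3.20 (adjusted p = 0.00581), against 1.27 (adjusted p = 0.217) with vehicle. The called count ranged from 0 to 18 over the alternatives for the challenge and from 1 to 31 under rapamycin.

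Of 41 listed integrin ligands 35 were tested, and 14 were called with the challenge, 10 higher and 4 lower, with a median of 0.37, beside 21.4% of all genes. Spp1, encoding osteopontin, was not well above background on any DMSO array and was on all 3 BA+DMSO arrays, at least 26.5-fold higher (adjusted p = 0.00147). It passed the filter only through the challenged arrays, so its call, 1 of the 14, is given as a description. Its BA+DMSO mean of 0.58 had an SD of 2.14 (n = 3). For that fold the BA+DMSO mean was set against the higher of each DMSO array's lowest detectable signal and the probe's own. Thbs1, encoding thrombospondin-1, rose by 2.11 (adjusted p = 0.00222), and Cyr61, a matricellular ligand, fell by 2.72 (adjusted p = 0.0127). Under rapamycin 12 of the 35 were called, 8 higher and 4 lower, beside 42.7% of all genes. The called count ranged from 0 to 21 over the alternatives for the challenge and from 2 to 26 under rapamycin. Rapamycin under challenge gave 0 calls in each of these 4 lists by limma, and so did rapamycin alone, where 0.305% and 0.00499% of all genes were called, so the absence of calls says little about the lists.

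**Figure D5:**
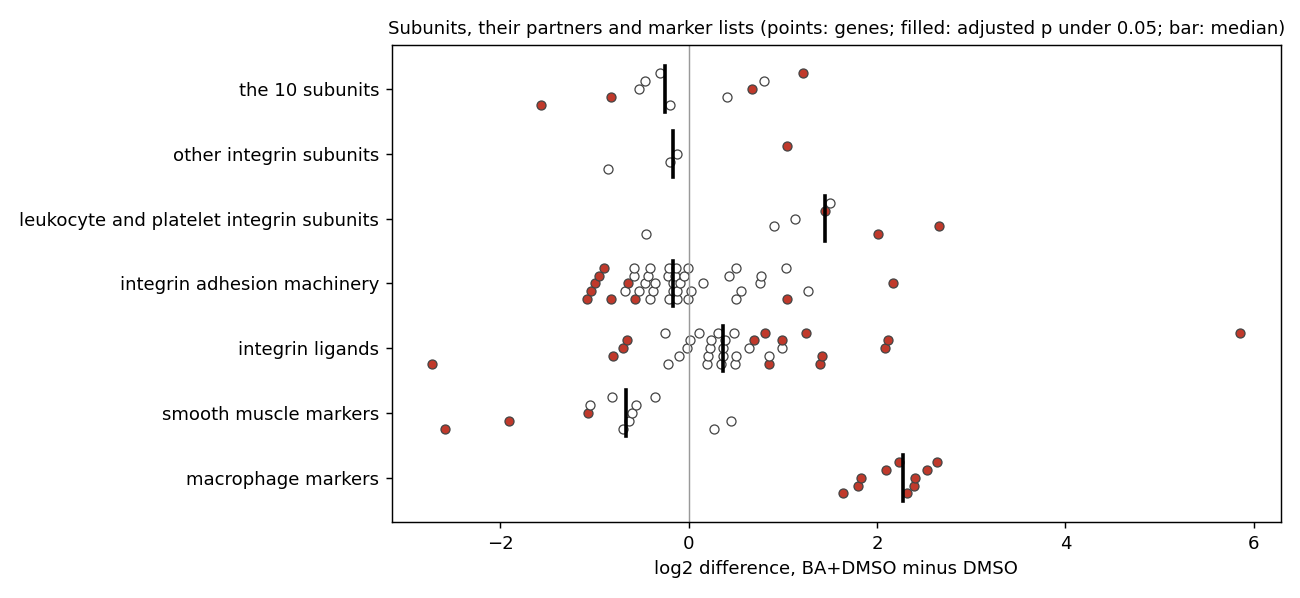
Points are genes, plotted by their log2 difference of BA+DMSO minus DMSO (x axis) within the 10 subunits, 4 lists of related genes and 2 lists of cell type markers (y axis), filled where called, with a bar at the median. The 10 subunits spread to both sides of 0 with a median of -0.25, between the SMC markers at -0.66 and the macrophage markers at 2.27.

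Markers of cell types moved with these results, and their part in them was not tested. Of 12 SMC markers 3 fell with the challenge, namely Synpo2 (-2.58), Lmod1 (-1.91) and Cald1 (-1.07), and none rose, against 21.4% of all genes called. The called count ran from 0 to 7 over the alternatives for the challenge and from 1 to 10 under rapamycin. Tagln (0.45) and Acta2 (0.27), named after their values were seen, stood above their controls without a call. Under rapamycin 5 of the 12 were called, beside 42.7% of all genes: 4 fell and Tagln rose, by 1.05 (adjusted p = 0.0130). All 10 macrophage markers were called higher with the challenge in vehicle-treated mice, beside 10.4% of all genes called higher. Under rapamycin 6 of the 10 were called higher, beside 19.8% of all genes, and Cd163 was at -0.06. Cd163, 1 of the 10, was well above background on only 6 of 12 arrays, so its call is given as a description. The vehicle differences of the macrophage markers included Cd68 (2.63), C1qa (2.53) and Lyz2 (2.40). Their summed level, in multiples of the array's 75th percentile, ran from 24.2 to 45.2 in the DMSO group and from 40.2 to 52.5 with rapamycin alone. It ran from 72.6 to 181 in the BA+DMSO group and from 104 to 109 in the BA+rapamycin group. The summed level of the SMC markers was 3087 to 3292, 2796 to 3249, 2514 to 4975 and 3575 to 4615 in the same order of groups, so the sum and the mean of the log2 values differed in direction in BA+rapamycin mice.

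Other marker lists moved less uniformly with the challenge. Called higher were 3 of 7 endothelial (Emcn, Kdr and Tie1), 2 of 7 fibroblast (among them Col1a1, by 0.99), 1 of 4 tested neutrophil (Ly6g), 1 of 6 platelet (Pf4, by 1.46) and 1 of 5 adipocyte (Ucp1) markers, beside 10.4% of all genes called higher. Ucp1 was not well above background on any DMSO array and passed the filter through the BA+DMSO arrays, where it was at least 7.28-fold higher. The endothelial differences were 1.40, 1.28 and 0.93 in that order, and Ly6g rose by 1.87. The endothelial genes Pecam1 and Tek were each at -0.28, not called. Under rapamycin 4 of the 7 endothelial markers were called, 2 higher and 2 lower, beside 42.7% of all genes. Those lower were Pecam1 (-0.87, adjusted p = 0.0257) and Tek (-0.99, adjusted p = 0.0415), by limma. Other markers with large differences for the vehicle challenge were not called, namely the adipocyte genes Adipoq (2.08) and Cidec (1.80), the neutrophil genes S100a8 (1.74) and S100a9 (1.64), the platelet genes Treml1 (1.55) and Gp9 (1.44), and the fibroblast genes Lum (1.13) and Pi16 (1.00). Gp9 was well above background on 2 of 3 DMSO arrays and passed the filter only through the BA+DMSO arrays. Of 7 nerve and Schwann cell markers 3 rose, including Mbp (1.65) and S100b (1.45), and 2 fell, including Ncam1 (-1.41), beside 21.4% of all genes. None of the 4 skeletal muscle markers was called, with Ckm at -1.56, Tnni2 at 1.33 and Acta1 at -1.05. Ckm was well above background on all 3 DMSO arrays but on only 1 of 3 BA+DMSO arrays, so its value is not an exact difference. Relative to the SMC marker mean, Itgb1, Itga11, Itga5 and Itgav were called higher with the challenge (1.47, 2.01, 1.596 and 1.21), and Itga1, Itga7, Itga9, Itgb3 and Itgb5 differed by -0.03 to 0.60 without a call. On this scale 31.6% of all probes were called and their median was 0.75, so the uncalled subunits lay below the median of all probes.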

How the data were processed

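RNA from 12 mouse aortae was hybridised by the authors to 1-colour Agilent arrays, 1 array per mouse. The deposited scanner files hold intensity values per spot, background-corrected by the scanner software (Feature Extraction 10.7.1.1 per the file headers, 9.5.1.1 per the labels), with probe positions on mm9 (NCBI 37). A deposited matrix of the authors' normalized intensity values served as an alternative. It is on a linear scale with the same quartiles in every column, as quantile normalization leaves them, but a method is not given in the sources used here. The deposited flags for signals well above background were used as given, and no probe was saturated.

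Processed intensities were taken to log2, set to each array's 75th percentile and kept where at least 0.5 of a probe's spots were well above background on all 3 arrays of a group. Of 62976 spots 3671 were controls, and 6 probes without an unflagged spot on every array were dropped. Group means were fitted with limma 3.58.1 in R 4.3.3, with Benjamini-Hochberg adjustment over 27801 probes and calls at 0.05. The fit was also run on simulated data with the same spread in every group and no slide or brightness effect. That run therefore did not check the fit for the wider spread of the BA+DMSO arrays or for the slide. The 14 member probes matched current RefSeq symbols. All members were named with every probe, as were the 3 genes of each list with the largest challenge difference and the 3 genes most like Itga8 and Itga11. Members and lists were chosen with earlier results of these data known. Samples were grouped by their treatment label. The number of arrays limits the precision. Alternatives covered scaling, background correction, filters, blocks, weights, probe choice, the study's threshold (p under 0.01 and fold over 4 or under 0.25) and leaving out each array.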

Additional observations from a re-analysis of the deposited data

Results flagged for a closer look

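By the main probes, for 6 of the 10 subunits every rapamycin mouse lay on one side of the DMSO mean and every BA+rapamycin mouse on the other side of the BA+DMSO mean, against 10.3% of all genes tested. The difference between rapamycin's difference with and without the challenge (limma's interaction) was -0.31 for Itga1 (adjusted p = 0.748), -0.91 for Itga11 (adjusted p = 0.737), 0.37 for Itgav (adjusted p = 0.737), 0.63 for Itgb1 (adjusted p = 0.737), 0.53 for Itgb3 (adjusted p = 0.737) and -0.40 for Itgb5 (adjusted p = 0.737). None passed the test. Of the 4 second probes only that of Itgb3 showed such opposite sides, and the second Itga1 probe had differences of -0.10 and 1.11 where the main probe had 0.10 and -0.21.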

How the results depend on the processing

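The number of called subunits depended on the setting. For the challenge (4 of 10) it was 2 with median scaling or no filter on dim probes, and 0 with the slide as a fixed block, with only the groups of the comparison, with array weights or at the study's threshold, and 1 to 7 on leaving out single arrays. For the challenge under rapamycin (5 of 10) it was 3 on slide 2 alone or with the mean of a gene's probes, and 1 at the study's threshold or with brightness as a covariate. For rapamycin alone (0) it was 1 with array weights. For rapamycin under challenge and for the interaction (0 each) it was 0 to 2 on leaving out single arrays. Title numbers shared by mice of different groups did not mark a stated shared batch. With the number as a random replicate block (consensus correlation 0.361) the counts were 4 for the challenge, 6 for the challenge under rapamycin, where Itga7 was added (-0.62, adjusted p = 0.0471), and 0 for the rapamycin comparisons and the interaction. Titles of 10 mice also carry dates, some shared across groups, whose meaning is not stated. With the date as a random block (consensus correlation 0.496) the counts were 4 and 5 for the challenge without and with rapamycin and 0 otherwise. For Itga1 the challenge under rapamycin turned from -1.14 to 0.44 with the mean of its probes, and its second probe, an alternative chosen after seeing the data, gave 0.81 for the vehicle challenge and 2.02 under rapamycin. Itgb5 under rapamycin gave 0.0053 relative to SMC markers, also chosen after seeing the data, where the median over all probes was 0.63. Within arrays, Itgb3 minus Itgb5 shifted by 0.015 with the challenge in the deposited matrix and by -0.30 to 0.077 on leaving out single arrays, and Itga1 minus Itga11 shifted by -0.13 to 0.63 with rapamycin under challenge. Itga8 kept its challenge call in 24 of 30 alternatives, Itga11 in 23, Itgb1 in 20 and Itga1 in 17.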
